A study of Pleurotus tuoliensis with 9 samples.

Results

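The 3 unigenes described here, gene_6270, gene_6272 and gene_9154, are annotated as members of the Hsp70 chaperone family in the white-rot mushroom *Pleurotus tuoliensis*. A unigene is a transcript model assembled from the reads, and its description is that of its best protein match. The 3 were taken by their IDs from the 13953 unigenes deposited, and all 3 were among the 13018 with a nonzero count in every library, which were tested. gene_6270 and gene_6272 carry the description "heat shock protein 70" and share 1 matched protein of *Pleurotus eryngii*, whereas gene_9154 is described as a "lumenal Hsp70 protein" of *Pleurotus ostreatus*. The 3 were chosen by measured values, namely their counts in these 9 libraries, and they are the Hsp70-described unigenes that pass the DEG thresholds between the hottest group and the control. Their differences between groups are therefore given as a description with no test.

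Mycelia of the strain Zhongnong No.1 were first grown for 9 days at 25 °C on potato dextrose agar without light. From day 10, the CK plates stayed at 25 °C, the MHT plates (moderate heat) were kept at 32 °C and the SHT plates (severe heat) at 36 °C, and mycelia were collected on day 13, when the treatment had lasted 96 h. RNA-seq was performed on 3 libraries per group, which the study calls independent biological replicates. All came from this 1 strain and from 1 time point, so earlier changes after the shift were not analysed here.

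Hsp70 proteins bind exposed hydrophobic stretches of other proteins while they hold ADP and release them when they bind ATP. J-domain proteins (Hsp40s) deliver clients and speed up ATP hydrolysis, and nucleotide exchange factors let ADP go, so Hsp70 works as a cycle with both partners. In budding yeast, separate family members act in the cytosol (Ssa and Ssb proteins), in the mitochondrial matrix (Ssc1) and in the lumen of the endoplasmic reticulum (Kar2 and Lhs1). Some members are made at all times and others are heat inducible. The descriptions "heat shock protein 70" and "lumenal Hsp70 protein" do not say to which of these yeast proteins a unigene corresponds.

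The libraries held 3925786 to 5014053 counts in CK, 4865930 to 6180053 in MHT and 4764179 to 5917149 in SHT. Levels below are CPM (read counts relative to library size) scaled by TMM, and they compare 1 unigene between libraries, since unigene lengths were not used here and levels cannot be set against each other between unigenes. MHT3 and SHT2 stood apart from their own groups. On the log2 scale over all tested unigenes, MHT3 lay at a distance of 75.6 and 71.3 from the other MHT libraries, which were 43.4 apart, and SHT2 lay at 65.9 and 67.6 from the other SHT libraries, which were 43.0 apart. The CK libraries were 51.5 to 62.6 apart. Hydrophobins and cerato-platanins, small secreted proteins of growing mycelium, were looked up as markers, and 6 unigenes had such a description (5 tested). Their summed level was 1802 to 2554 CPM in CK, 912 to 1016 CPM in MHT and 199 to 442 CPM in SHT. The 1 fruiting-stage marker found, a pleurotolysin, had 1173 to 1905 CPM in CK, 583 to 703 CPM in MHT and 36.3 to 195 CPM in SHT. These markers were lower in each warmer group, where the Hsp70 unigenes were higher, and their part in the results below was not tested. In bulk mycelium, fewer hyphae of a type and less RNA per hypha cannot be told apart.

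All 3 Hsp70 unigenes were higher in both heated groups than in CK, and the group means were in the order of temperature for each. gene_6270 showed the widest differences. It had 245, 277 and 221 CPM in CK, 519, 429 and 596 CPM in MHT and 967, 496 and 1204 CPM in SHT. The 3 MHT and the 3 SHT libraries all lay above every CK library, SHT1 and SHT3 lay above every MHT library, and SHT2 fell inside the MHT range. The means were 247 ± 28.2 CPM in CK, 515 ± 83.7 CPM in MHT and 889 ± 360.4 CPM in SHT (SD, n = 3 each). The log2 fold change was 1.06 (SE 0.284) in MHT&CK, a 2.08-fold higher level, and 1.84 (SE 0.290) in SHT&CK, a 3.59-fold higher level. It was 0.79 (SE 0.282) in SHT&MHT, where the libraries overlapped.

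gene_6272, which matches the same protein, had lower counts and smaller differences. It had 45.7, 53.0 and 49.6 CPM in CK, 102, 80.6 and 79.2 CPM in MHT and 139.9, 55.7 and 148 CPM in SHT. SHT1 and SHT3 were the highest libraries of the 9, but SHT2 stood only slightly above the highest CK library and below every MHT library. The means were 49.4 ± 3.63 CPM in CK, 87.2 ± 12.7 CPM in MHT and 114 ± 51.0 CPM in SHT (SD, n = 3 each). The log2 fold change was 0.82 (SE 0.298) in MHT&CK, 1.21 (SE 0.299) in SHT&CK and 0.39 (SE 0.291) in SHT&MHT, and the last of these is within 2 standard errors of 0.

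gene_9154, the lumenal Hsp70, had means in MHT and SHT that were close to each other, which rests on MHT3. It had 70.9, 84.1 and 73.1 CPM in CK, 133, 116 and 208 CPM in MHT and 172, 149.6 and 175 CPM in SHT. Every heated library lay above every CK library, and the highest library of all was MHT3, the one that stood apart from its group. The means were 76.0 ± 7.07 CPM in CK, 152 ± 49.1 CPM in MHT and 166 ± 14.05 CPM in SHT (SD, n = 3 each). The log2 fold change was 1.00 (SE 0.217) in MHT&CK, 1.12 (SE 0.217) in SHT&CK and 0.12 (SE 0.212) in SHT&MHT. MHT1 and MHT2 lay below every SHT library, and without MHT3 the log2 fold change was 0.71 in MHT&CK and 0.41 in SHT&MHT.

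**Figure D1:**
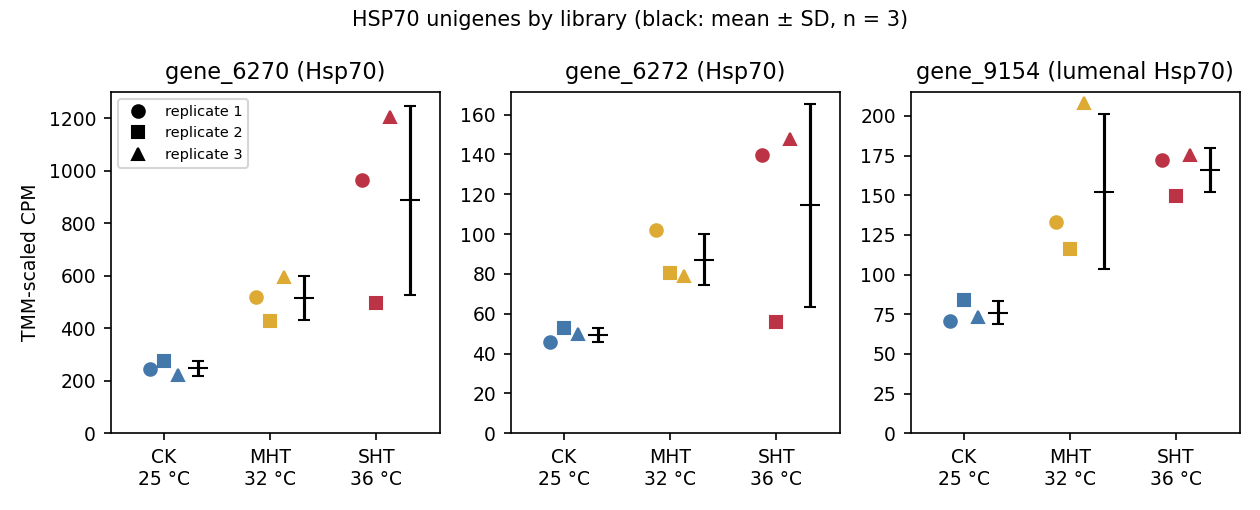
Level of gene_6270, gene_6272 and gene_9154 in TMM-scaled CPM (vertical axes, linear and starting at 0, 1 panel per unigene) in the 3 libraries of CK (25 °C), MHT (32 °C) and SHT (36 °C), with a black mark and bar for the mean ± SD. Each heated library lies above the CK libraries, and SHT2 is the lowest SHT library in each panel, at 496 CPM for gene_6270 and 55.7 CPM for gene_6272.

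DEGs had to differ by more than 1 on the log2 scale and have an adjusted p below 0.05. By these thresholds 3 of the 3 were DEGs in SHT&CK, where 21.7% of all tested unigenes were DEGs and 10.8% were higher. This count was fixed by how they were chosen. In MHT&CK, 2 of the 3 were DEGs, gene_6270 and gene_9154, where 8.17% of all tested unigenes were DEGs and 3.85% were higher. Both were thus higher DEGs in the 2 comparisons with CK, as 2.78% of all unigenes were. gene_9154 stood at the fold threshold itself there. It kept the call in 7 of 18 alternatives and was at 0.71 in MHT&CK without MHT3. gene_6270 kept it in 13 of 19 and lost it when any 1 of CK1, CK2, CK3, MHT1 and MHT3 was left out. Its log2 fold change stayed above 1 without CK1 (1.07), CK2 (1.15) and MHT1 (1.05), where the adjusted p missed its threshold, and was 0.98 without CK3 and 0.94 without MHT3. In SHT&CK gene_6272 was at 0.98 and no DEG without SHT3. In SHT&MHT, 0 of the 3 were DEGs by the quasi-likelihood test of edgeR, and 5.65% of all tested unigenes were. DESeq2 called 0 as well.

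The choice of members used the counts of all 3 groups, so the place of each among all unigenes is also a description. A log2 fold change at or above that of gene_6270 was held by 2.45% of the tested unigenes in SHT&CK and 4.59% in MHT&CK. For gene_6272 these shares were 7.92% and 8.07%, and for gene_9154 they were 9.32% and 5.18%. In SHT&MHT the shares were 8.42% for gene_6270, 22.4% for gene_6272 and 40.3% for gene_9154. gene_6270 was thus farther into the upper tail in SHT&CK than in MHT&CK, and for gene_9154 the order was the other way round. The place of gene_9154 in MHT&CK depends on MHT3, without which its log2 fold change there was 0.71. The groups of each of the 3 did not overlap with CK, which 27.6% of all unigenes show as SHT above CK and 18.4% as MHT above CK. None of the 3 had SHT libraries all above the MHT libraries, which 15.4% of all unigenes did. The group means increased with temperature in all 3 and in 27.3% of all unigenes.

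The spread within SHT came mostly from 1 library, and it was not shared equally. The difference of SHT2 from the mean of SHT1 and SHT3 was -1.12 on the log2 scale for gene_6270, -1.36 for gene_6272 and -0.22 for gene_9154. Over all tested unigenes this difference had a median of -0.0379 and ran from -0.990 to 0.764 between the 5th and 95th percentiles. A dip at least as large as that of gene_6272 was found in 1.89% of unigenes, and 3.5% had one at least as large as that of gene_6270, whereas 35.2% matched or passed that of gene_9154. The coefficient of variation in SHT was 40.6% for gene_6270, 44.6% for gene_6272 and 8.47% for gene_9154. In MHT it was 16.3%, 14.5% and 32.2% for the same unigenes in that order, and MHT3 differed from the mean of the other MHT libraries by 0.34, -0.19 and 0.74. The lumenal unigene therefore varied most in MHT and the other 2 in SHT. Without SHT2, gene_6270 was at 1.07 in SHT&MHT and then a DEG, and the SHT libraries of gene_6270 and gene_6272 then lay above every MHT library, as 23.2% of all unigenes did.

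gene_6270 and gene_6272 share a matched protein, so reads could have been divided between them in counting, and their ratio depends on the counting as well as on the cells. gene_6272 took 16.7% ± 1.42 of the pair's counts in CK, 14.7% ± 2.55 of them in MHT and 11.2% ± 1.29 of them in SHT (SD, n = 3 each). The SHT shares of 10.1% to 12.6% lay below all CK shares of 15.7% to 18.3%, and the MHT shares of 11.7% to 16.4% reached into both ranges. With counts of the pair summed, the log2 fold change was 1.02 in MHT&CK, 1.76 in SHT&CK and 0.74 in SHT&MHT, close to that of gene_6270 alone. The ID between them, gene_6271, is described only as a hypothetical protein and was looked at after the values were seen. It had 70.9, 73.5 and 59.4 CPM in CK, 133, 107 and 98.6 CPM in MHT and 197, 89.6 and 247 CPM in SHT. Its SHT libraries lay above the CK libraries, again with SHT2 far below the other SHT libraries, and its log2 fold change in SHT&CK was 1.39 (SE 0.299, adjusted p = 0.00365 by edgeR), which makes it a DEG. Coordinates were not used here, so whether the 3 IDs are neighbours in the genome or pieces of 1 transcript was not tested.

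The lumenal description is shared by 3 unigenes with 1 matched protein, gene_9152, gene_9153 and gene_9154. gene_9153 had 59.2, 69.7 and 65.7 CPM in CK, 111, 105 and 133 CPM in MHT and 105, 107 and 119.6 CPM in SHT. gene_9152 had 98.7, 129 and 118 CPM in CK, 206, 193 and 209 CPM in MHT and 188, 125 and 200.3 CPM in SHT. Both had a lower mean in SHT than in MHT, unlike gene_9154. For gene_9153 this order rests on MHT3, as MHT1 lay inside the SHT range and MHT2 just below it. gene_9154 took 53.95% ± 1.11 of its summed counts with gene_9153 in CK, 56.1% ± 4.45 of them in MHT and 59.99% ± 1.93 of them in SHT (SD, n = 3 each). The SHT shares of 58.4% to 62.1% lay above all CK shares of 52.7% to 54.7%, and among the MHT libraries only MHT3, at 61.1%, was as high. Set against gene_9152, the share of gene_9154 was 39.8% ± 1.83 in CK libraries, 42.2% ± 6.72 in MHT libraries and 49.7% ± 4.24 in SHT libraries. These shares rest on the counts that chose gene_9154 and not the other lumenal unigenes, so a higher share at 36 °C follows from the choice, and the counts may have been divided among all 3.

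**Figure D2:**
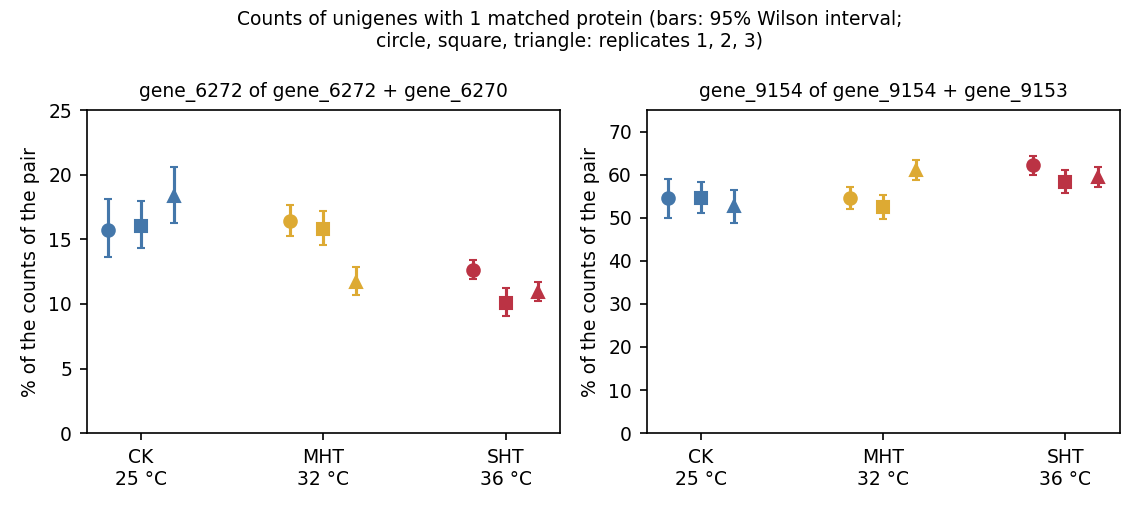
Share of gene_6272 in the summed counts of gene_6272 and gene_6270, and of gene_9154 in those of gene_9154 and gene_9153, in percent by library, with 95% Wilson intervals that cover counting error only. The gene_6272 share is 15.7% to 18.3% in CK and 10.1% to 12.6% in SHT, and the gene_9154 share is 52.7% to 54.7% in CK and 58.4% to 62.1% in SHT.

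A search of the descriptions gave 10 Hsp70 unigenes in all, the 3 described above and 7 others. Summed over the 10, the level was 2246 ± 170.2 CPM in CK, 3260 ± 356 CPM in MHT and 4121 ± 1180 CPM in SHT (SD, n = 3 each), and SHT2 had 2797 CPM against 4503 and 5064 CPM in the other SHT libraries. As a share of each library's counts the family took 0.205% ± 0.0222 in CK libraries, 0.328% ± 0.0398 in MHT libraries and 0.450% ± 0.124 in SHT libraries. Of the family's counts, the 3 unigenes held 16.6% ± 0.429 at 25 °C, 23.0% ± 1.46 at 32 °C and 27.9% ± 2.58 at 36 °C, and gene_6270 alone held 11.0% ± 0.552, 15.7% ± 0.885 and 21.0% ± 3.06 along the same temperatures. These shares rest on the same counts that chose the 3.

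**Figure D3:**
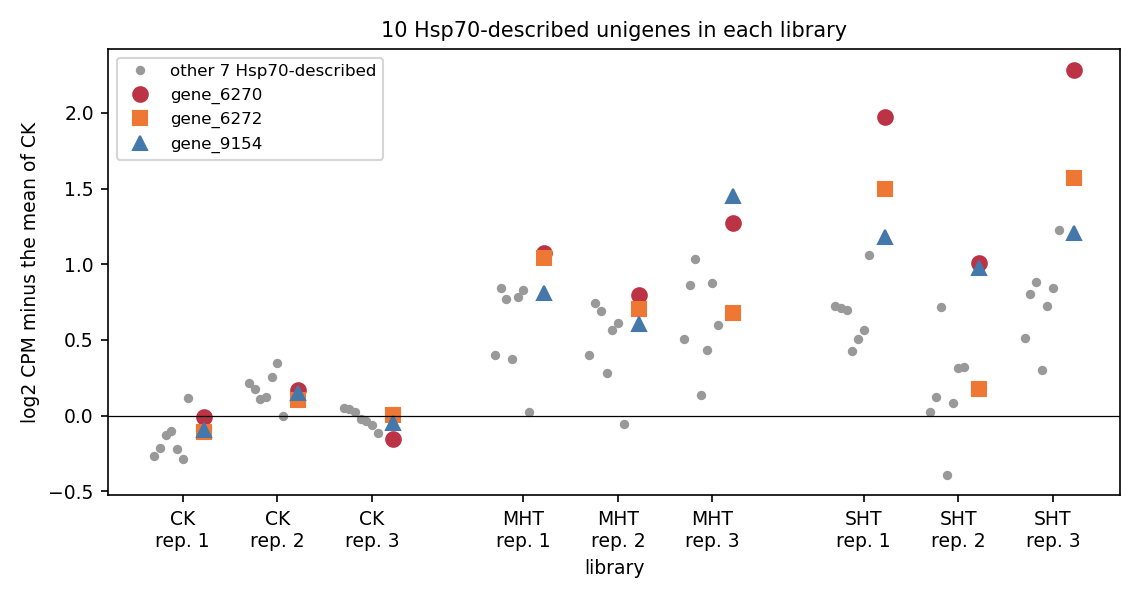
Log2 CPM of the 10 Hsp70-described unigenes in each of the 9 libraries, as the difference from the unigene's mean in CK. The 3 members are above the CK mean in all heated libraries, gene_6270 the farthest in SHT1 and SHT3, and in SHT2 it and gene_6272 stand far below those libraries.

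The other 7 were not DEGs in any comparison, which also follows from the choice of the 3. In edgeR, 0 of the 7 were DEGs in each comparison, and DESeq2 called 0 in each. An adjusted p under 0.05 by edgeR was held by 3, 4 and 0 of the 7 in MHT&CK, in SHT&CK and in SHT&MHT. Of all tested unigenes, 7.5%, 20.4% and 4.82% were higher with such a p. All 7 had a positive log2 fold change in MHT&CK and in SHT&CK, as 49.9% and 50.5% of all unigenes did. Their median was 0.59 in MHT&CK, where that of all unigenes was -0.00153, and 0.57 in SHT&CK, where that of all unigenes was 0.0116. In SHT&MHT, 2 of the 7 had a positive log2 fold change (49.8% of all unigenes) and the median was -0.11. In MHT&CK the MHT libraries lay above every CK library in 6 of the 7 and in 18.4% of all unigenes. In SHT&CK 2 of the 7 had SHT libraries all above CK, near the share of 27.6% of all unigenes. Without SHT2 all 7 did, as did 33.8% of all unigenes, and SHT2 was the lowest SHT library in 6 of the 7 and in 42.8% of all unigenes.

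gene_19843, another "heat shock protein 70", came closest to the DEG thresholds from outside. It had 879, 808 and 746 CPM in CK, 824, 779 and 1224 CPM in MHT and 1691, 1011 and 1899 CPM in SHT, so that all SHT libraries lay above CK, and of the MHT libraries only MHT3 did. Its log2 fold change was 0.92 in SHT&CK (SE 0.267, adjusted p = 0.0166), just under the threshold of 1, with gene_9154 at 1.12 just above it. Without SHT2 it was 1.14 and a DEG. In MHT&CK it was 0.22 (adjusted p = 0.619), and without MHT3 it was -0.017.

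A different order of group means was found in gene_14277, gene_14278, gene_9152 and gene_9153, whose means were highest in MHT, as was that of gene_9501. Their log2 fold changes in SHT&MHT were small, from -0.24 (SE 0.197, gene_9152) to -0.07 (SE 0.162, gene_9153). In SHT2 gene_14277 had 378 CPM, beside 507 and 589 CPM in SHT1 and SHT3, and gene_9501 had 248 CPM, beside 439 and 403 CPM. In both, the higher mean in MHT rests on SHT2, and in gene_9153 it rests on MHT3. gene_14278 averaged 144 ± 33.2 CPM in CK, 244 ± 22.9 CPM in MHT and 214 ± 39.5 CPM in SHT, and gene_14277 averaged 360 ± 60.9, 541 ± 67.8 and 491 ± 106 CPM at the same temperatures (SD, n = 3 each). The adjusted p in MHT&CK was 0.0280 for gene_14278 (log2 fold change 0.75), 0.0180 for gene_9152 (0.81) and 0.00588 for gene_9153 (0.84), and 0.0839 for gene_14277 (0.59). In SHT&CK the log2 fold changes of gene_14278, gene_9152 and gene_9153 were 0.57, 0.57 and 0.77, with adjusted p of 0.0434, 0.0381 and 0.00351. None of these 4 passed in SHT&MHT, where their SHT libraries overlapped with the MHT libraries. gene_9501 and gene_6678 had the smallest differences in SHT&CK, at 0.15 (adjusted p = 0.592) and 0.44 (adjusted p = 0.107) on the log2 scale. gene_9501 averaged 327 ± 25.9 CPM in CK, 393 ± 31.9 CPM in MHT and 363 ± 101 CPM in SHT, and without SHT1 it was at -0.018 in SHT&CK.

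**Figure D4:**
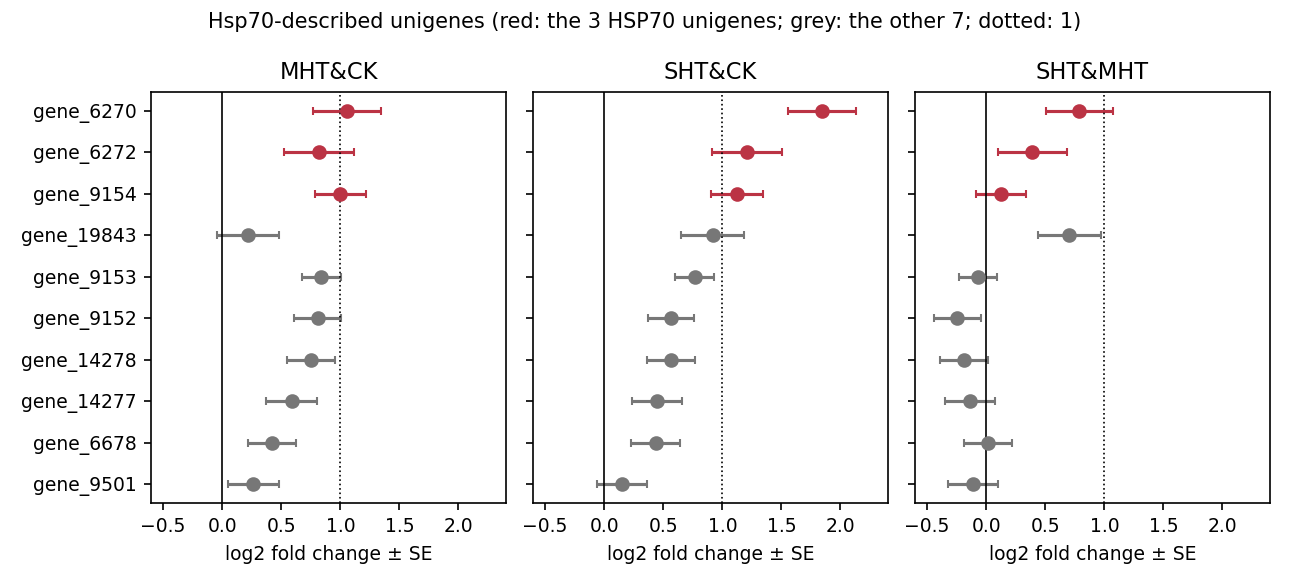
Log2 fold change with its standard error for the 10 Hsp70-described unigenes in each of the 3 comparisons, with a dotted line at the DEG threshold of 1. The 3 members (red) are at 0.82 to 1.06 in MHT&CK and 1.12 to 1.84 in SHT&CK, and the other 7 (grey) reach 0.84 in MHT&CK and 0.92 in SHT&CK.

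The partners of Hsp70 were looked up by words in the descriptions. No unigene was described as a nucleotide exchange factor of Hsp70, a disaggregase of the Hsp104 or Clp family or a heat shock transcription factor. The words used for small heat shock proteins matched 4 unigenes, and all 4 are described as Hsp90 or its co-chaperone Cdc37, so they are counted with Hsp90 only. With 10744 unigenes described only as hypothetical or uncharacterized proteins, a family without a match may still be expressed. Together with the other 7 Hsp70 unigenes, the partner lists held 36 unigenes. In MHT&CK, 1 of the 36 was a DEG (higher), in SHT&CK 6 were higher DEGs and 2 were lower DEGs, and in SHT&MHT 1 was higher and 1 lower. Their median log2 fold change was 0.30, 0.51 and 0.21 in these comparisons. The count of 6 of 36 in SHT&CK stands beside the 10.8% of all unigenes that were higher DEGs, and 2 of 36 beside the 10.9% that were lower DEGs. The 7 Hsp70 unigenes among the 36 could not be DEGs in SHT&CK, because the 3 were chosen as those that were. The counts and medians of the 36 are therefore shaped by that choice. In MHT&CK 4.32% of all unigenes were lower DEGs, and in SHT&MHT 2.79% were higher and 2.87% lower DEGs. The comparisons MHT&CK and SHT&CK share the CK libraries.

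J-domain proteins activate the ATPase of Hsp70. Of 8 unigenes matched by name, 1 was a DEG in SHT&CK (higher), where 10.8% of all tested unigenes were higher DEGs. The median log2 fold change of the list was 0.10 in SHT&CK and 0.05 in MHT&CK. The list includes gene_1085 and gene_1086, described only by a Sec63 domain, and whether they hold a J domain was not tested. In MHT&CK and SHT&MHT 0 of 8 were DEGs by edgeR. The 1 that rose was gene_18208, described as TIM14, which in yeast mitochondria stimulates the Hsp70 of the protein import motor. It had 11.1, 10.8 and 11.6 CPM in CK, 15.5, 16.8 and 30.5 CPM in MHT and 33.3, 34.7 and 38.7 CPM in SHT. All SHT libraries, SHT2 included, lay above all MHT and CK libraries, and the log2 fold change in SHT&CK was 1.67 (SE 0.260, adjusted p = 5.85e-04). The unigene described as a type I HSP40, gene_25310, was looked at after the values were seen, and the description does not say which Hsp70 it serves. It averaged 1151 ± 132 CPM in CK, 990 ± 336 CPM in MHT and 1545 ± 527 CPM in SHT, with an adjusted p of 0.266 in SHT&CK.

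The mitochondrial import machinery is the route by which a mitochondrial Hsp70 pulls proteins into the matrix. Of its 4 unigenes, TIM14 among them, 3 rose in SHT&CK, where 10.8% of all tested unigenes were higher DEGs, and the fourth was no DEG at a log2 fold change of 0.99. The median of the list was 1.06, beside 0.0116 for all unigenes. In MHT&CK 0 of the 4 were DEGs by edgeR, with a median of 0.70. gene_15418, described as TIM44, which in yeast anchors the import Hsp70 at the membrane channel, had 27.5, 27.1 and 27.5 CPM in CK, 29.0, 36.4 and 52.2 CPM in MHT and 47.4, 51.1 and 67.6 CPM in SHT. Its log2 fold change in SHT&CK was 1.01 (SE 0.230, adjusted p = 0.00476). gene_16754, described as the channel subunit tim23, was higher by 1.10 on the log2 scale in SHT&CK (SE 0.224, adjusted p = 0.00255). Both stood close to the fold threshold, and without SHT3 they were at 0.84 and 0.97, no longer DEGs, as was gene_16754 without CK1 (0.98).

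The chaperonins fold proteins inside a closed chamber, downstream of Hsp70 in the mitochondrial matrix and in the cytosol. gene_17118, the 10 kDa cofactor of the mitochondrial chaperonin, averaged 36.4 ± 4.47 CPM in CK, 63.5 ± 23.4 CPM in MHT and 111 ± 20.7 CPM in SHT, with a log2 fold change in SHT&CK of 1.61 (SE 0.252, adjusted p = 5.94e-04). For the cytosolic chaperonin, 6 unigenes matched, and 10.8% of all tested unigenes were higher DEGs in SHT&CK. In SHT&CK 2 of the 6 rose, gene_24921 (T-complex protein 1, log2 fold change 1.41, SE 0.244, adjusted p = 0.00106) and gene_17389 (its epsilon subunit, 1.07, SE 0.177, adjusted p = 7.91e-04), which was at 0.96 and no DEG without CK1. gene_24921 was also the 1 higher DEG of all partner lists in MHT&CK, at 1.07 (adjusted p = 0.0127), and was no DEG without MHT3 (0.88) or without CK3 (0.99). The 1 that fell, gene_3557, is described as Tcp11, a name that the search words caught and not a chaperonin subunit. Its log2 fold change in SHT&CK was -2.23 (SE 0.223, adjusted p = 4.41e-05).

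Hsp90, which takes over clients from Hsp70, and its co-chaperones had no DEG among 6 unigenes in any comparison by edgeR. Of all tested unigenes, 8.17%, 21.7% and 5.65% were DEGs in MHT&CK, in SHT&CK and in SHT&MHT. The median of the Hsp90 list was 0.04 in MHT&CK and 0.39 in SHT&CK. For the lumenal unigene, partners in the endoplasmic reticulum were looked up. Of 3 unigenes for disulfide isomerases, which form disulfide bonds in the lumen, 0 rose and 1 fell in SHT&CK. There, 10.8% of all tested unigenes were higher DEGs and 10.9% were lower DEGs. gene_8671, described as the precursor of a disulfide isomerase, had 252, 223 and 215 CPM in SHT and 477, 462 and 459 CPM in CK, and its log2 fold change in SHT&CK was -1.02 (SE 0.207, adjusted p = 0.00257). It was close to the threshold and was no DEG without SHT3 (-0.98) or with library totals in place of TMM. gene_8668, another disulfide isomerase, was higher in SHT&MHT (1.11, SE 0.249, adjusted p = 0.0177) and had 112, 51.1 and 98.3 CPM in SHT and 44.7, 39.1 and 36.8 CPM in MHT. Its adjusted p missed the threshold when any 1 of 4 libraries was left out, at log2 fold changes of 0.88 without SHT1, 1.01 without SHT3, 1.20 without MHT1 and 1.09 without MHT2. The translocon list (Sec63, a J-domain partner of Kar2 in yeast, and the signal recognition particle) had 0 DEGs of 5 in all 3 comparisons by edgeR. It includes gene_1085 and gene_1086, for which the description names only a Sec63 domain. In all 36 unigenes, 18, 20 and 11 had an unadjusted p under 0.05 in MHT&CK, in SHT&CK and in SHT&MHT, and DESeq2 called 1, 8 and 2 DEGs.

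**Figure D5:**
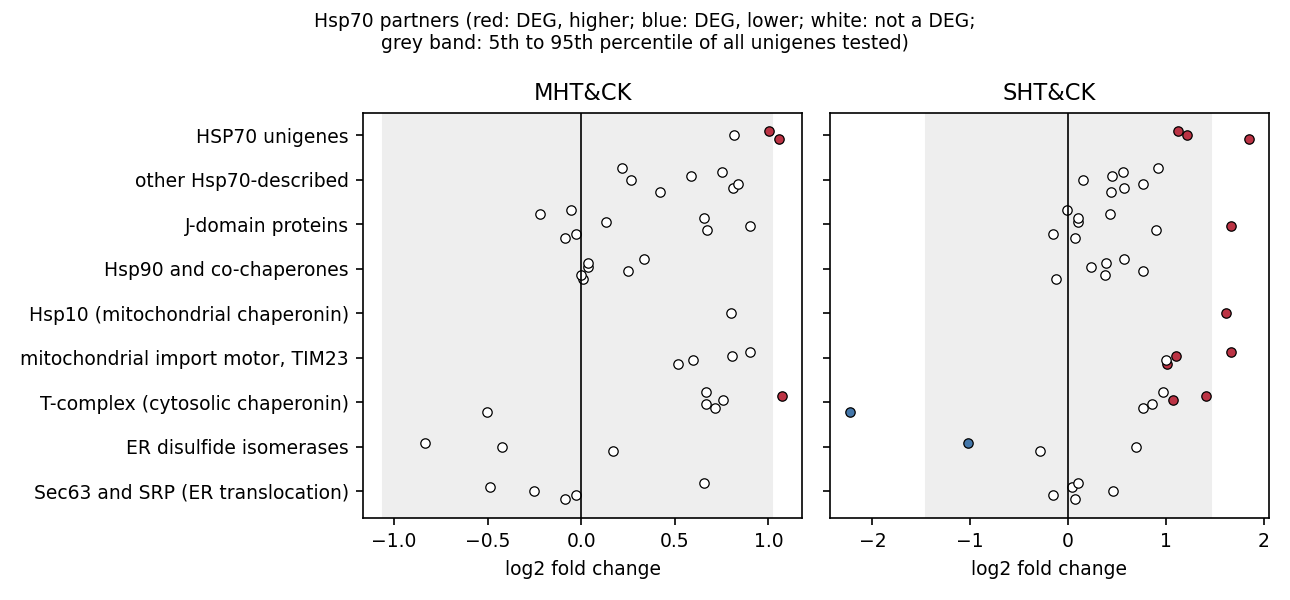
Log2 fold change of each unigene of the partner lists in MHT&CK and SHT&CK, 1 row per list, with filled red points for higher DEGs, blue for lower DEGs, white for unigenes that are no DEG, and a grey band from the 5th to the 95th percentile of all tested unigenes (-1.06 to 1.02 in MHT&CK and -1.45 to 1.46 in SHT&CK). The top row holds the 3 members, all red in SHT&CK by the choice. Other red points stand in SHT&CK for the import machinery, the chaperonins and 1 J-domain protein. That J-domain protein is gene_18208 (TIM14), which is drawn in the import row as well. The blue point in the cytosolic chaperonin row is gene_3557 at -2.23, a Tcp11 unigene and not a chaperonin subunit.

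Hsp70, actin and hexokinase share an ATPase fold, and 2 unigenes are described only by an actin-like ATPase domain, a name that Hsp70 proteins can also receive. Both were higher DEGs in SHT&CK, as 10.8% of all tested unigenes were. gene_26632 had 26.7, 33.9 and 29.3 CPM in CK, 26.2, 31.7 and 35.8 CPM in MHT and 121, 51.5 and 141 CPM in SHT, with log2 fold changes of 1.80 in SHT&CK (SE 0.311, adjusted p = 0.00106) and 1.74 in SHT&MHT (adjusted p = 0.00661). Its MHT and CK libraries overlapped, and SHT2 stood far below the other SHT libraries, as for gene_6270 and gene_6272. gene_15053 had 100.2, 142 and 103 CPM in CK, 193, 196 and 293 CPM in MHT and 249, 223 and 288 CPM in SHT, and was higher by 1.14 on the log2 scale in SHT&CK (SE 0.217, adjusted p = 0.00184). Whether either is an Hsp70 cannot be told from the description.

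The unigenes with the profile most like each of the 3 were found by the root mean square difference of log2 CPM, each centred on its own mean, over the 9 libraries and 2531 unigenes with an informative description. These profiles share the 9 libraries and so also MHT3 and SHT2. The nearest to gene_6270 were gene_24786 (0.179) and gene_24785 (0.206), both described as 2-isopropylmalate synthase, the first committed enzyme of leucine synthesis. Next came gene_19698, chaperonin GroL, the large subunit of the mitochondrial chaperonin (0.230), gene_22002, an ATP-binding cassette protein (0.251), and gene_915, homoisocitrate dehydrogenase of fungal lysine synthesis (0.271). The median difference to gene_6270 was 0.802. gene_24786 had 48.6, 59.95 and 47.2 CPM in CK, 78.2, 70.9 and 126 CPM in MHT and 197, 109.7 and 247 CPM in SHT, with the same low SHT2. Among the 2531, gene_6272 was at rank 39 (0.333), gene_9154 at rank 88 (0.398) and gene_19843 at rank 138, so neither of the other 2 was among the nearest to gene_6270.

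For gene_6272 the nearest were gene_965, a ribosome biogenesis protein (0.213), gene_1148, a mitochondrial protein (0.216), gene_703, a carbohydrate esterase (0.230), gene_24886, with the domain of Utp21, which in yeast takes part in making the small ribosomal subunit (0.238), and gene_23740, an ATP-dependent DNA ligase (0.241). The median was 0.641, and gene_6270 was at rank 31. gene_965 had 16.7, 16.9 and 18.996 CPM in CK, 31.3, 32.8 and 28.5 CPM in MHT and 38.5, 22.9 and 40.7 CPM in SHT, with SHT2 below every MHT library as in gene_6272. For gene_9154 the nearest were gene_15053, the actin-like ATPase domain protein above (0.108), gene_13203, a SPOC domain protein (0.108), gene_1350, a glutamate-ammonia ligase, which makes glutamine (0.121), gene_4525, subunit b of translation initiation factor 3 (0.128), and gene_25207, subunit A of the vacuolar proton ATPase (0.129). The median was 0.577, and the lumenal gene_9153 was at rank 51 (0.202). gene_1350 had 467, 487 and 481 CPM in CK, 984, 829.5 and 1376 CPM in MHT and 1051, 847 and 1139 CPM in SHT, and like gene_9154 it was highest in MHT3.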

How the data were processed

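RNA-seq was performed on mycelia of CK, MHT and SHT (3 libraries each). The authors used fastp for read filtering, Bowtie2 against rRNA, HISAT2 for alignment and StringTie for assembly and counting. Versions, and whether counting used strand, were not given in the sources used here. Raw whole-number counts for each unigene were deposited by the authors, with the description of the best protein match. Read division between unigenes with the same match can change their ratio. Counts were scaled by TMM and tested in edgeR 4.0.16 by quasi-likelihood (R 4.3.3, robust, 1 model over 9 libraries, group only) on the 13018 unigenes without a zero count (935 left out), with Benjamini-Hochberg adjustment. The common biological coefficient of variation came to 0.221. Called DEGs had adjusted p under 0.05 and absolute log2 fold change above 1. Log2 CPM used a prior count of 2. The standard error is the log2 fold change over the square root of F. On data simulated for SHT&CK (12973 unigenes), 99% of 3-fold and 100% of 6-fold changes were recovered, with 6 false calls among 12773. Low-count unigenes were given no change, and no outlying library was simulated. Changes close to the fold threshold were not simulated, so recovery of such calls was not measured. Intervals of shares are Wilson intervals for counting error.

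The 3 unigenes and all lists were chosen with earlier results of these data known. Named besides them were all other Hsp70-described unigenes, up to 3 DEGs per partner list with the largest change in SHT&CK, and the 5 nearest profiles per member (mean CPM of at least 10). gene_6271, gene_25310, gene_25100, gene_19908 and gene_19909 were named after their values were seen. Same-numbered libraries of different groups showed no general tendency to deviate together. Alternatives were DESeq2 1.42.0, other scalings and filters, fits of 2 groups only, a replicate block and leaving out libraries. No sequences were used here.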

Additional observations from a re-analysis of the deposited data

How the results depend on the processing

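With library totals in place of TMM, the median log2 fold change of all unigenes moved to 0.138 in MHT&CK, 0.278 in SHT&CK and 0.125 in SHT&MHT. gene_9154 was then at 1.39 in SHT&CK (1.11 above that median), and of the partner unigenes 2 were higher DEGs in MHT&CK, 14 higher and 1 lower in SHT&CK. With only the 2 groups compared, 0 partner unigenes were higher in SHT&MHT. Without MHT3 and SHT2 together, chosen after seeing the data, 0 partner unigenes were higher in MHT&CK and 6 in SHT&MHT, gene_9154 was at 0.47 in SHT&MHT, and 1549 unigenes were DEGs in SHT&MHT, against 736 with all libraries. Leaving out 1 library at a time gave 757 to 1136 DEGs in MHT&CK, 2388 to 2968 in SHT&CK and 278 to 1428 in SHT&MHT. The last count was 1428 without MHT3, 278 without SHT3, 317 without MHT1, 401 without MHT2 and 457 without SHT1. Partner unigenes that were higher DEGs numbered 0 to 2 in MHT&CK (0 without CK3 or MHT3), 4 to 9 in SHT&CK and 0 to 3 in SHT&MHT (3 without MHT3), and lower DEGs 0 to 0, 1 to 2 (1 without SHT3) and 1 to 1. In the same runs, log2 fold changes in MHT&CK, then SHT&CK and SHT&MHT were 0.94 to 1.16, 1.56 to 2.12 and 0.50 to 1.07 for gene_6270, 0.69 to 0.88, 0.98 to 1.53 and 0.16 to 0.71 for gene_6272, and 0.71 to 1.15, 1.07 to 1.20 and -0.040 to 0.41 for gene_9154. In MHT&CK, gene_6270 was a DEG in 13 of 19 alternatives and gene_9154 in 7 of 18. In SHT&CK, gene_6270 was in 19 of 19, gene_9154 in 18 of 18 and gene_6272 in 17 of 18 (lost without SHT3, at 0.98). Signs turned for gene_19843 in MHT&CK without MHT3 (-0.017) and without MHT3 and SHT2 (-0.012), and for gene_9501 in SHT&CK, which ran from -0.018 without SHT1 to 0.36 without SHT2. Of 774 values of other named unigenes, 733 kept their direction and side of the threshold, 34 lost the call, 4 gained it and 3 turned sign. The cause of these changes was not tested.

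Same-numbered libraries of different groups had correlations of -0.23 to 0.44 over 9 pairs, with 1 of 9 over 0.1 (MHT1 with SHT1, 0.44). Of 18 differently numbered pairs, 8 were over 0.1. No general pairing by number was seen, but 3 libraries per group cannot exclude one. With a replicate block, 990, 2767 and 641 unigenes were DEGs in MHT&CK, in SHT&CK and in SHT&MHT, and the log2 fold changes were 1.01, 1.76 and 0.75 for gene_6270, 0.80, 1.13 and 0.33 for gene_6272 and 0.96, 1.11 and 0.15 for gene_9154. The lowest member count, 156 for gene_6272 in CK1, has a counting error of about 8.01%, beside a spread of 7.35% between the CK libraries and 44.6% between the SHT libraries of that unigene.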

Other observations

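Some chaperone unigenes carry names that the search words did not hold, and they were looked at after the values were seen. gene_25100 is described as heat shock protein sks2, which in fission yeast is an Hsp70 bound to ribosomes, so it may be an eleventh member of the family. It averaged 208 ± 28.5 CPM in CK, 237 ± 15.5 CPM in MHT and 196 ± 20.2 CPM in SHT (SD, n = 3 each), and its log2 fold change was 0.18 for MHT&CK and -0.09 for SHT&CK. It was the only Hsp70 unigene named here with a mean in SHT below that in CK. gene_19698, chaperonin GroL, which works with Hsp10 in the mitochondrial matrix, averaged 792 ± 163 CPM in CK, 1526 ± 349 CPM in MHT and 2821 ± 664 CPM in SHT, and was higher by 1.83 on the log2 scale in SHT&CK (SE 0.267, adjusted p = 3.78e-04), almost that of gene_6270.

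gene_19908, described only as a heat shock protein, averaged 843 ± 98.6 CPM in CK, 1137 ± 149 CPM in MHT and 1520.4 ± 352 CPM in SHT, with an adjusted p of 0.0115 in SHT&CK at a log2 fold change of 0.85, under the DEG threshold. gene_19909, an Hsp90, has the next ID and averaged 481 ± 10.1 CPM in CK, 607 ± 68.4 CPM in MHT and 716 ± 209 CPM in SHT, with an adjusted p of 0.0609 in SHT&CK. SHT2 was the lowest SHT library in both, as in the 3 Hsp70 unigenes, with 1122 and 478 CPM.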
